A study of Homo sapiens with 6 samples.

Results

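The genes described here are 59 components of TGF-β and bone morphogenetic protein (BMP) signaling, chosen by name from the 60623 genes of a raw count table: ligands, receptors, SMAD proteins, antagonists, and direct feedback genes. The rule uses gene names only, and no measured value, although the list was made with earlier results of these data known. Expression was profiled by RNA-Seq in TC28a2 cells, an established line of immortalized human chondrocytes, treated for 24 hours with 2 μM of mocetinostat, an inhibitor of class I histone deacetylases (HDACs), or with DMSO, the solvent control that defines the other group. Each group held 3 samples, which the study describes as 3 independent experiments. The comparison addresses which genes the HDAC inhibitor regulates in chondrocytes. All 6 samples come from a single immortalized line in culture, and no genotype, further agent, or other time point was compared here.

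TGF-β family ligands are secreted dimers that bring together type I and type II serine/threonine kinase receptors. TGF-β and activin signals pass mainly through SMAD2 and SMAD3 and BMP signals through SMAD1, SMAD5, and SMAD9, and both kinds join SMAD4 in the nucleus. Secreted antagonists trap the ligands, and SMAD6, SMAD7, SMURF proteins, SKI, and SKIL restrain the signal inside the cell. In cartilage, TGF-β is known for maintaining the articular chondrocyte, whereas BMPs and growth differentiation factor 5 (GDF5) drive cartilage and joint formation.

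DMSO-treated libraries held 4873426 to 11031132 counts and mocetinostat-treated libraries 1619344 to 5089542, so that the treated group was the shallower one. Of all genes, 13966 had enough counts to be tested. The line was checked against chondrocyte markers. *SOX9* had 1129, 584, and 648 counts in the DMSO-treated samples, whereas the cartilage collagen genes *COL2A1* (26, 7, and 19 counts) and *COL9A1* (0, 3, and 1 counts) were near the floor. The summed level of the 8 chondrocyte markers was 115 to 141 CPM (counts scaled to the size of each library) with DMSO and 257 to 297 CPM with mocetinostat. Most of both sums was *SOX9* (106 ± 13.6 CPM with DMSO and 180 ± 14.4 CPM with mocetinostat). Fibroblast markers summed to 4654 to 5627 CPM and 4307 to 4691 CPM, respectively, and *COL1A1* made up most of both sums (4544 ± 483 CPM and 3932 ± 194 CPM). Of the other fibroblast markers, *COL3A1* fell, *THY1*, *COL1A2*, and *PDGFRA* rose (log2 fold changes 0.75, 1.73, and 3.82), *COL1A2* and *PDGFRA* having only 10 to 39 and 4 to 12 counts per DMSO-treated sample, and *DPT* had 1 read in all.

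Upregulated genes (URGs) and downregulated genes (DRGs) were those with an adjusted p under 0.05 and a log2 fold change over 1 or under -1, which is a change of more than 2-fold. A gene is said to have risen or fallen where its adjusted p was under 0.05, whatever the size. Tests were quasi-likelihood tests in edgeR, and p-values were adjusted over all 13966 tested genes by the Benjamini-Hochberg method. Log2 fold changes are given ± standard error and levels as CPM ± SD of n = 3 samples, in the order of replicates 1, 2, and 3 where all samples are listed.

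Of the 59 genes, 53 were tested. Of these, 19 were URGs, or 35.8%, beside 20.2% of all tested genes, and 3 were DRGs, or 5.66%, beside 8.18% of all tested genes. The 2 calls together took in 22 genes, beside 28.4% of all tested genes. In all, 28 rose (32.9% of all tested genes did), 12 fell (31.4% of all), and 13 did not pass the test, so that 40 of 53 passed, beside 64.3% of all. All 3 mocetinostat-treated samples were above all 3 DMSO-treated samples for 29 genes and below them for 12, and the groups overlapped for 12. Over all tested genes these shares were 33.7% above and 32.8% below. The median log2 fold change of the tested signaling genes was 0.37, and that of all tested genes was -0.0021. Scaling the libraries to GAPDH moved the median of all genes up by 0.54 and gave 24 URGs, 1 DRG, 37 genes that rose, and 3 that fell, beside 31.7%, 2.03%, 55.2%, and 9.82% of all tested genes under that scaling. Counts in the role groups rest on 4 to 14 tested genes each and are read beside the same shares over all tested genes. Because RNA was taken from whole cultures, fewer cells of a type and less RNA per cell cannot be told apart.

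The filter on low counts bears on these numbers. Of the 53 tested genes, 41 were above the filter's level of 2.01 CPM in all 6 samples. In all mocetinostat-treated but not all DMSO-treated samples, 10 were above it (*INHBB*, *INHBE*, *BMP2*, *BMP6*, *BMP8A*, *BMP8B*, *SMAD9*, *CHRD*, *ID2*, and *ID4*). For most of these 10, the direction was largely set by the filter. *INHBE* (3.44, 2.08, and 1.92 CPM with DMSO) and *SMAD9* (3.53, 2.92, and 1.77 CPM) were partly above the level in the controls and did not pass the test. Of the 10, 8 were URGs (80%), beside 90.1% of the 1559 genes of that kind. Among the 41, 11 were URGs (26.8%, beside 12.2% of the 11552 genes of that kind) and 2 were DRGs (4.88%, beside 8.49%). Their median log2 fold change was 0.27, beside -0.10 for all genes of that kind. The remaining 2 tested genes were *GDF5*, above the level in the DMSO-treated samples only, and *NOG*. These counts describe the gene set and are no test of it.

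**Figure D1:**
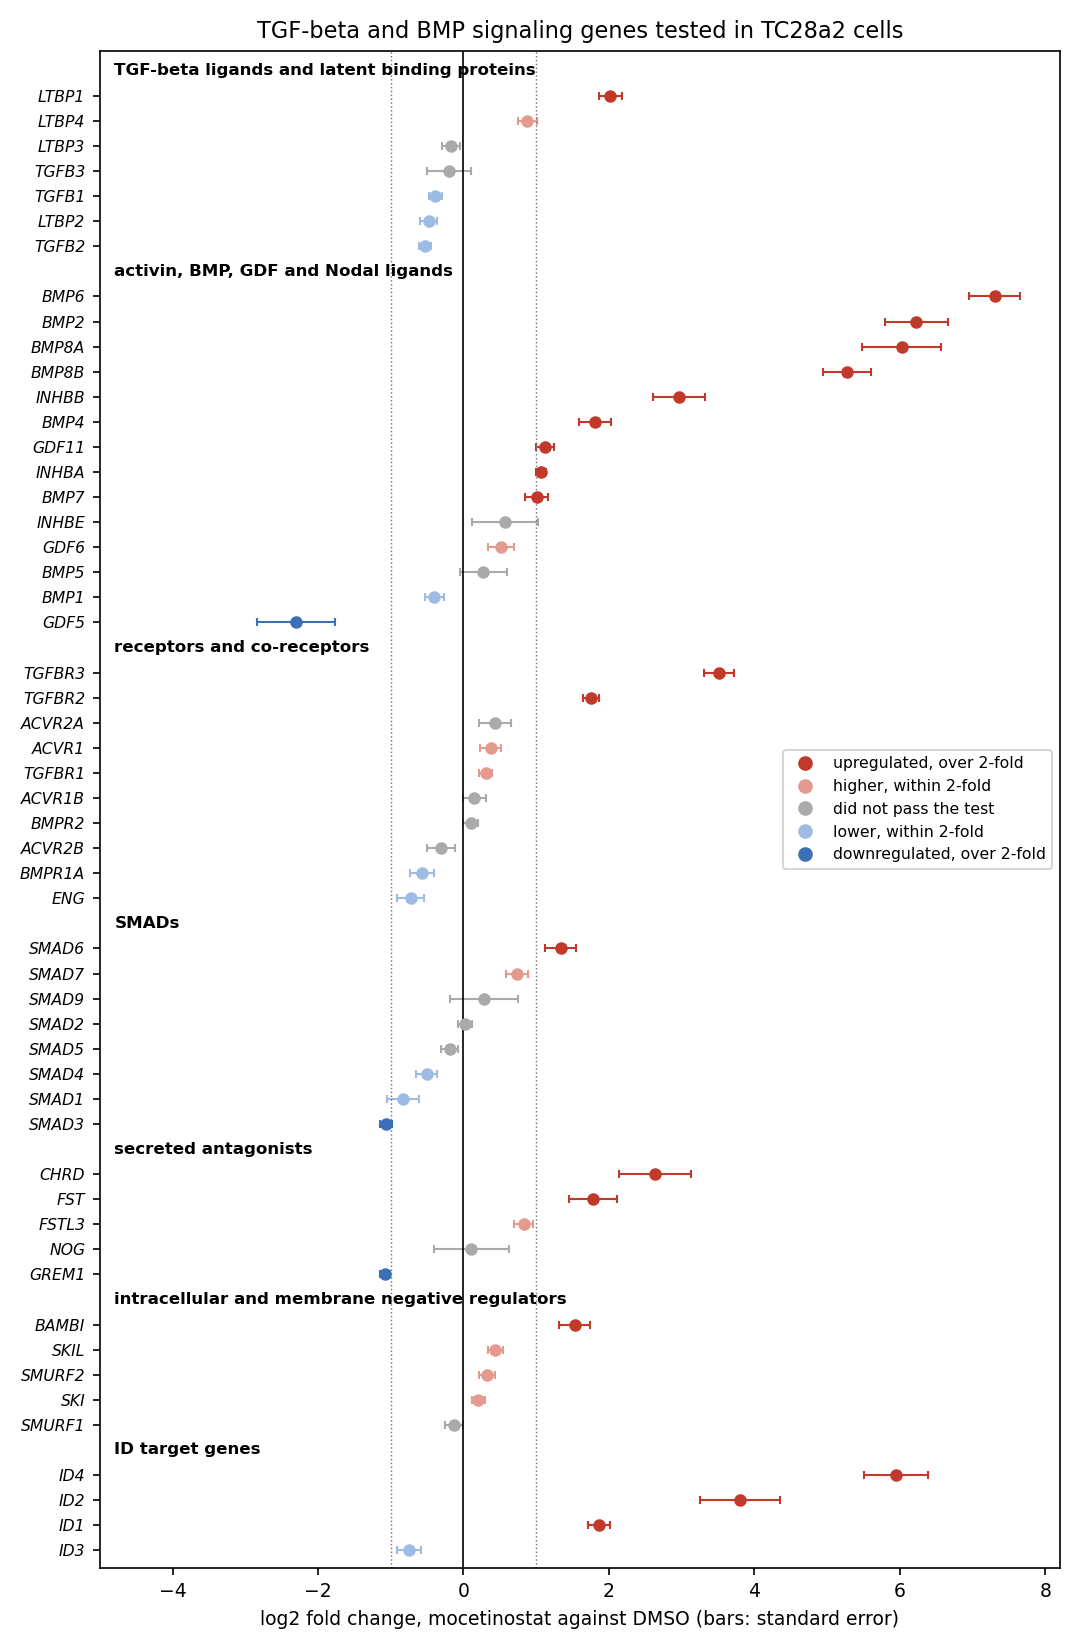
Log2 fold change (horizontal axis, mocetinostat against DMSO) of the 53 tested TGF-β and BMP signaling genes, grouped by role, with bars for the standard error, dotted lines at -1 and 1, and color for the result of the test. The 19 URGs reach 7.30 in *BMP6*, and the 3 DRGs are *GDF5*, *GREM1*, and *SMAD3*. Scaling to GAPDH adds 0.54 to the median and turns 10 genes near 0 upward, among them *TGFB1* and *SMAD4*.

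Promoter sequence is shown for 4 genes: *BMP6* and *ID4*, which were among those with the largest increases, and *ID3* and *GREM1*, which fell in the same role groups as genes that rose. The 250 bases before each RefSeq gene start (GRCh38.p14, printed 5′ to 3′ on the gene's own strand) were at chr6:7725849-7726098 on the plus strand for *BMP6*, chr6:19837120-19837369 on the plus strand for *ID4*, chr1:23559502-23559751 on the minus strand for *ID3*, and chr15:32717754-32718003 on the plus strand for *GREM1*. Capitals mark the GC box GGGCGG, searched on both strands, so that a box on the other strand reads CCGCCC.
BMP6: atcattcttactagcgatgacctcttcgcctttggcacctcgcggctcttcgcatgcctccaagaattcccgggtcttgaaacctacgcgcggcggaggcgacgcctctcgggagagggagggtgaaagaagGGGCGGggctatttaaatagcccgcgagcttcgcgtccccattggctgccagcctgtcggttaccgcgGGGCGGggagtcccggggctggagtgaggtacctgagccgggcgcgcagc
ID4: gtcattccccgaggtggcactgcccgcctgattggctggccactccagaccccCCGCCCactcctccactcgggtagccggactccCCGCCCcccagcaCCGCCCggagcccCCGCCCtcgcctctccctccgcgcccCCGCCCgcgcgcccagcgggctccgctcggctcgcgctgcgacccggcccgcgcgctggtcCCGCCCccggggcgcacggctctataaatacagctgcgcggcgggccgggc
ID3: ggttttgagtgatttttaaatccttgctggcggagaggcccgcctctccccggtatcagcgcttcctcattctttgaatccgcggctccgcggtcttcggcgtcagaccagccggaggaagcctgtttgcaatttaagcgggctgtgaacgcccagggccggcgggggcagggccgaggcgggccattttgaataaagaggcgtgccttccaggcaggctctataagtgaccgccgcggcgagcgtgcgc
GREM1: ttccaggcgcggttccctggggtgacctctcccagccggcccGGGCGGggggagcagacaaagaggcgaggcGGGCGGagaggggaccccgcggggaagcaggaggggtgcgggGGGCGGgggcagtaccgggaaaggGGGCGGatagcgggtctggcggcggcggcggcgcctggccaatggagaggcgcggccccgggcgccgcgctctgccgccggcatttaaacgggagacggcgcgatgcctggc
These windows hold 2 GC boxes for *BMP6*, 6 for *ID4*, 0 for *ID3*, and 4 for *GREM1*, and 64.4%, 78.8%, 62%, and 76.8% of their bases are G or C. The count of boxes thus does not sort the 4 genes by direction.

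RefSeq promoters of 300 bases, reaching 50 bases past the start, were found for 50 of the 59 genes. A GC box was present in 35 of 50 (70.0%), close to the 71.5% of 10361 promoters of tested genes and above the 45.0% of all 35116 promoters. Among the URGs, 14 of 17 promoters (82.4%) held it. The letters TATAAA were in 8 of 50 promoters (16.0%), beside 5.21% of the promoters of tested genes and 11.5% of all promoters. The SMAD-binding letters CAGACA were in 14.0% of the family's promoters and 11.8% of those of tested genes, and GGCGCC, a GC-rich SMAD element, in 32.0% and 31.4%, respectively. The CACCC box was in 64% and 63.3%, and the cyclic AMP response core TGACGTC in 6.00% and 5.70%. Motifs were searched on both strands and may overlap, and these shares describe letters only.

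*TGFB1* and *TGFB2* fell after mocetinostat (except under scaling to GAPDH), whereas *TGFB3* did not pass the test. *LTBP1*, which anchors latent TGF-β to the extracellular matrix, was the only URG among the 7 TGF-β ligand and latent binding protein genes. That is 14.3%, beside 20.2% of all tested genes. Of the 7, 2 rose (28.6%, beside 32.9% of all), 3 fell (42.9%, beside 31.4%), and 2 did not pass. Their median log2 fold change was -0.20. *TGFB1*, the most abundant ligand of this group per length, had 332, 455, and 457 CPM with DMSO and 320.2, 319.8, and 309 CPM with mocetinostat. The lowest DMSO-treated sample stayed above the highest treated one (log2 fold change -0.39 ± 0.08, edgeR adjusted p = 5.57e-05). *LTBP1* had 14.1, 15.4, and 14.9 CPM in the DMSO-treated samples and 52.9, 73.1, and 57.2 CPM in the treated ones, a 4.06-fold increase (log2 fold change 2.02 ± 0.16, edgeR adjusted p = 1.75e-18). *LTBP4*, another latent binding protein, rose by less than 2-fold (log2 fold change 0.88) and passed the 2-fold limit without DMSO replicate 3 (1.03). *LTBP2*, a matrix protein of the same family that does not bind latent TGF-β, fell by 0.48 on the log2 scale. The log2 fold changes were -0.53 for *TGFB2*, -0.20 for *TGFB3* (edgeR adjusted p = 0.579), and -0.18 for *LTBP3* (edgeR adjusted p = 0.214). When libraries were scaled to GAPDH, *TGFB1*, *TGFB2*, and *LTBP2* turned to 0.14, 0.00013, and 0.05. Exons of antisense *TGFB2-AS1* cover 11.6% of the *TGFB2* exons, and exons of *TGFB2-OT1* on the same strand cover 22.7%. No source used here says whether reads were counted by strand.

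*BMP6*, *BMP2*, *BMP8A*, and *BMP8B* had the largest log2 fold changes among the ligands. Of the 14 tested genes of the activin, BMP, and GDF group, which takes in the protease gene *BMP1*, 9 were URGs and 1 was a DRG. Of the same 14, 10 rose and 2 fell, with a median log2 fold change of 1.09. These shares were 64.3%, 7.14%, 71.4%, and 14.3%, beside 20.2%, 8.18%, 32.9%, and 31.4% of all tested genes. Of the 9 URGs, 5 (these 4 and *INHBB*) were tested only through their treated samples, so that the count is no support for a direction. The 4 ligands had 0 to 7 reads per DMSO-treated sample and 20 to 218 per treated sample. *BMP2* and *BMP6* are osteogenic and chondrogenic ligands, and *BMP8A* and *BMP8B* are close paralogs known from germ cells and brown fat.

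*BMP6* (GRCh38 chr6:7726099-7881728, plus strand) had 0, 2, and 4 reads in the controls and 218, 80, and 112 after mocetinostat, although the treated libraries were shallower. In CPM these are 0, 0.416, and 0.590 and 43.2, 49.6, and 46.4. The difference was log2 fold change 7.30 ± 0.35, edgeR adjusted p = 2.56e-30. With so few control reads the fold is imprecise, and the ratio of pooled CPM was 171 (95% interval 77.7 to 467). Leaving out DMSO replicate 1, the only one without a read, gave 6.37, and leaving out DMSO replicate 3 gave 8.21. Exons of *TXNDC5* on the opposite strand cover 5.60% of the *BMP6* exons.

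*BMP2* (chr20:6767686-6780246, plus strand) had 3, 0, and 3 counts and 98, 39, and 53 counts, or 0.271, 0, and 0.442 CPM against 19.4, 24.2, and 22.0 CPM (log2 fold change 6.23 ± 0.44, edgeR adjusted p = 4e-21). Its ratio of pooled CPM was 79.0 (95% interval 35.6 to 218), and after thinning, with still fewer control reads, the fitted log2 fold change was 8.02, a value that depends on the prior count. No annotated gene overlaps its exons. For *BMP8A* the read counts were 0, 2, and 2 for the controls and 65, 20, and 35 after mocetinostat, or 0, 0.416, and 0.295 CPM against 12.9, 12.4, and 14.5 CPM (log2 fold change 6.03 ± 0.55, edgeR adjusted p = 5.79e-16). Its pooled ratio was 74.9 (95% interval 28.5 to 279), and the log2 fold change was 5.13 without DMSO replicate 1 and 7.61 after thinning, where it also depends on the prior count. *BMP8B* rose from 5, 4, and 7 counts to 146, 48, and 66, or from 0.452, 0.833, and 1.03 CPM to 28.9, 29.7, and 27.4 CPM (log2 fold change 5.28 ± 0.33, edgeR adjusted p = 1.09e-23), with a pooled ratio of 40.6 (95% interval 24.5 to 72.0). For all 4 ligands, every treated sample was above every control, which the filter required in part, since they are among the genes that were tested only through their treated samples. *BMP8A* and *BMP8B* lie 227.3 kb apart on chromosome 1 and share 7.5% and 8.78% of their exonic 100-base windows (the read length), so that a small part of their reads cannot be assigned to either. The intervals of pooled ratios are exact binomial ones and cover counting error only.

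*BMP4* and *BMP7* were already expressed and rose from there. *BMP4*, which like BMP2 promotes cartilage and bone formation, had 7.87, 6.46, and 8.55 CPM with DMSO and 25.0, 33.5, and 24.5 CPM with mocetinostat (log2 fold change 1.80 ± 0.22, edgeR adjusted p = 3.73e-11). Mocetinostat replicate 2 was the highest of its group, and exons of an unnamed gene on the other strand cover 16.3% of its exons. *BMP7* had 19.3, 23.1, and 21.4 CPM and 38.5, 46.5, and 43.9 CPM (log2 fold change 1.01 ± 0.16, edgeR adjusted p = 1.24e-07). It sat at the 2-fold limit: its call as a URG was lost with DESeq2, without the filter, after thinning, and without each of DMSO replicates 1 and 3 (0.91 and 0.99) and mocetinostat replicates 2 and 3 (0.93 and 0.97). *BMP5* did not pass the test (log2 fold change 0.27, edgeR adjusted p = 0.478).

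**Figure D2:**
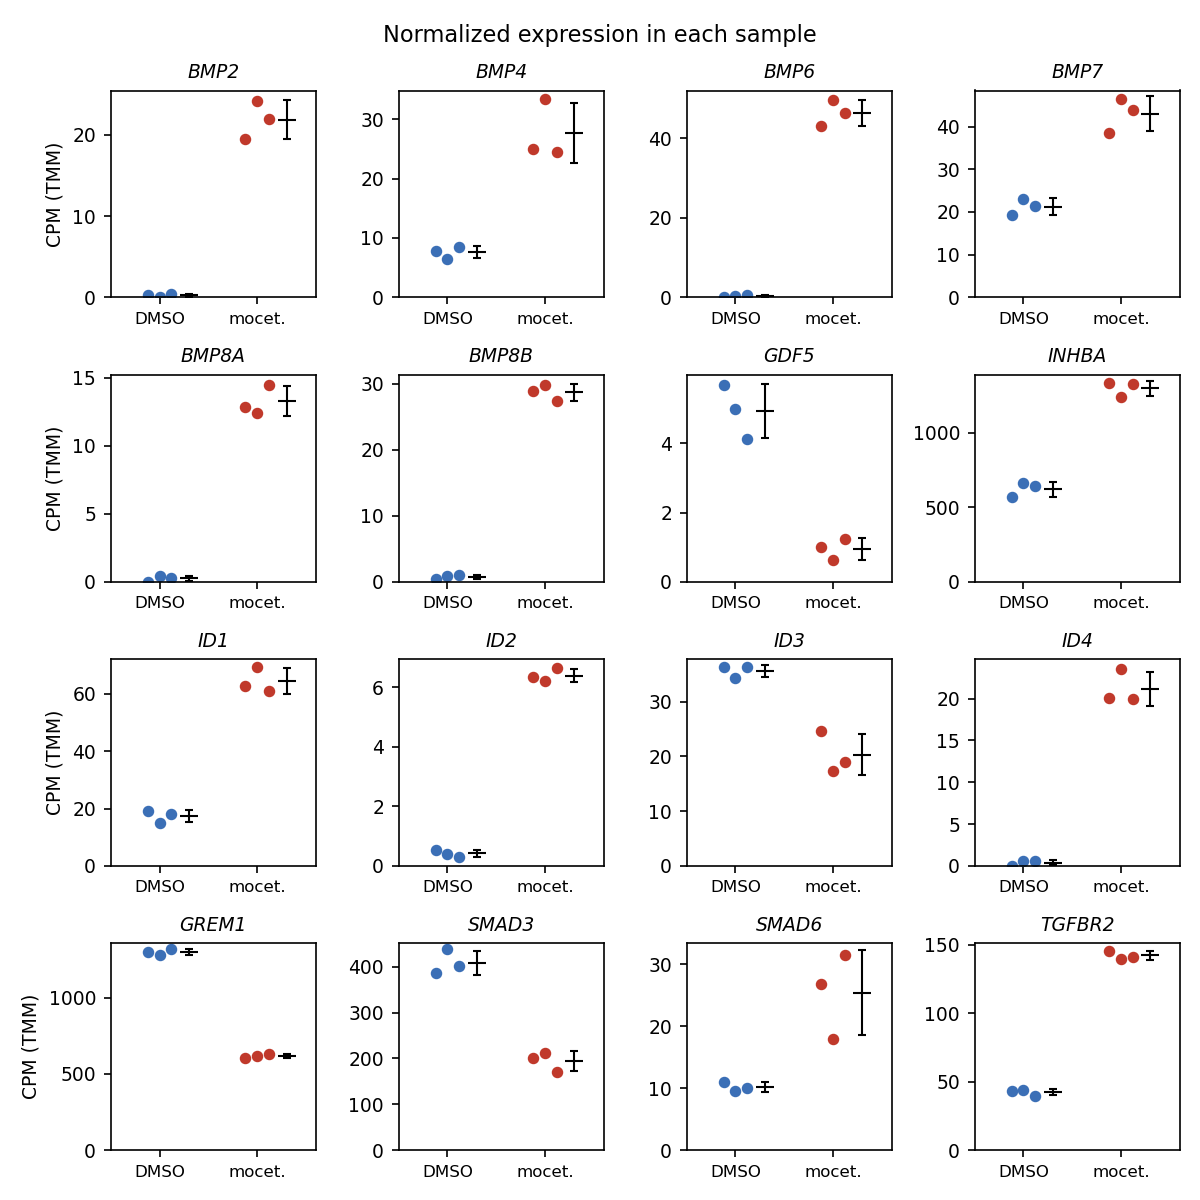
CPM of 16 signaling genes (vertical axes from 0, 1 panel per gene) in the 3 DMSO-treated and 3 mocetinostat-treated samples, with each point a sample and the black mark beside it the mean with SD. Groups do not overlap in any panel, but all 16 genes shown rose or fell. Over all tested genes, the treated samples were above the controls for 33.7% and below them for 32.8%. For *BMP2*, *BMP6*, *BMP8A*, *BMP8B*, *ID2*, *ID4*, and *GDF5*, the filter required the separation in part. *BMP6* goes from at most 0.590 CPM to at least 43.2 CPM, whereas *GDF5*, *ID3*, *GREM1*, and *SMAD3* are lower after mocetinostat in all 3 treated samples.

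Among the activin subunits, *INHBA* and *INHBB* were URGs. *INHBA*, which encodes the activin A subunit, was the most abundant ligand gene of this group per length. It had 564, 660.1, and 639 CPM with DMSO and 1329, 1239, and 1325 CPM with mocetinostat (log2 fold change 1.07 ± 0.07, edgeR adjusted p = 6.59e-23), a clear separation of the groups, although the fold was close to the 2-fold limit and was 0.98 on the log2 scale without DMSO replicate 1 and 0.81 without the filter. *INHBB*, the activin B subunit, had 1.45, 2.08, and 1.92 CPM and 12.3, 16.1, and 14.1 CPM (log2 fold change 2.97 ± 0.36, edgeR adjusted p = 2.69e-11). *INHBE*, a subunit best known from liver, did not pass (log2 fold change 0.57, edgeR adjusted p = 0.280). *GDF11*, a relative of myostatin, had 43.5, 49.8, and 39.9 CPM and 84.3, 102, and 105 CPM (log2 fold change 1.12 ± 0.12, edgeR adjusted p = 1.45e-12), and it was within 2-fold without the filter (0.87).

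*GDF5* moved the other way from most ligands. It encodes a ligand known for its role in joint formation and cartilage. Its counts were 63, 24, and 28 with DMSO and 5, 1, and 3 with mocetinostat, or 5.70, 4.998, and 4.13 CPM and 0.991, 0.620, and 1.24 CPM (log2 fold change -2.30 ± 0.54, edgeR adjusted p = 0.000136). Every treated sample was below every control, which the filter required in part, since *GDF5* was above its level only in the DMSO-treated samples. The treated group rests on 9 reads in all. Exons of *GDF5-AS1* on the opposite strand cover 35.4% of the *GDF5* exons, so that the value holds for *GDF5* and its antisense partner together where reads were not counted by strand. *GDF6*, its close relative in joint formation, rose by 0.52 on the log2 scale (edgeR adjusted p = 0.00741), and that call was lost with DESeq2, without the filter, and without mocetinostat replicate 3. *BMP1*, a procollagen-processing protease and no ligand despite its name, fell by 0.40 on the log2 scale, but not without mocetinostat replicate 1, after thinning, or under scaling to GAPDH (0.13).

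Among the receptors, *TGFBR1*, *TGFBR2*, and *TGFBR3* rose, and *BMPR1A* and *ENG* fell. Of 10 tested receptors and co-receptors, 2 were URGs, 4 rose, 2 fell, and 4 did not pass, and the median log2 fold change was 0.23. The shares of URGs (20%) and of genes that rose (40%) were close to the 20.2% and 32.9% of all tested genes. The URGs were *TGFBR2*, the type II receptor that binds TGF-β first, and *TGFBR3*, the co-receptor betaglycan that presents TGF-β2 and also binds inhibin. *TGFBR2* had 43.1, 44.1, and 39.9 CPM with DMSO and 146, 140.1, and 141 CPM with mocetinostat (log2 fold change 1.75 ± 0.11, edgeR adjusted p = 3.16e-23). *TGFBR3* had 3.98, 4.16, and 3.98 CPM and 49.0, 39.7, and 48.5 CPM, an 11.4-fold increase (log2 fold change 3.52 ± 0.21, edgeR adjusted p = 8.81e-25). Every treated sample of both genes was more than 2-fold above every control. The type I receptor *TGFBR1*, the most abundant receptor gene per length, had 189, 156, and 178 CPM and 214, 205, and 229 CPM (log2 fold change 0.30 ± 0.09, edgeR adjusted p = 0.00215), a rise that was lost without DMSO replicate 2 (0.20) and without the filter (0.05).

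*BMPR1A*, a type I BMP receptor, had 37.3, 36.4, and 36.8 CPM with DMSO and 23.0, 21.7, and 29.8 CPM with mocetinostat (log2 fold change -0.57 ± 0.16, edgeR adjusted p = 0.00162). It stayed lower under scaling to GAPDH but no longer passed (-0.03). *BMPR2*, the type II BMP receptor, had 103, 104, and 104 CPM and 113, 108, and 111 CPM (log2 fold change 0.10 ± 0.10, edgeR adjusted p = 0.406). The treated samples of *BMPR2* were above the controls, but the difference did not pass the test. *ENG*, the co-receptor endoglin, fell by 0.72 on the log2 scale (edgeR adjusted p = 0.000413), a call lost without mocetinostat replicate 1 (-0.43), under scaling to GAPDH, and after thinning. *ACVR1*, a type I receptor for BMPs, rose by 0.37 on the log2 scale, but not with DESeq2, after thinning, without the filter, or without either of DMSO replicate 3 and mocetinostat replicate 1. The activin receptors *ACVR1B*, *ACVR2A*, and *ACVR2B* did not pass, with log2 fold changes of 0.15, 0.43, and -0.30.

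*SMAD6* and *SMAD7*, the inhibitory SMADs, rose, whereas *SMAD3*, *SMAD1*, and *SMAD4* fell (*SMAD4* not under scaling to GAPDH). Among 8 tested SMAD genes, 1 was a URG, 1 was a DRG, 2 rose, 3 fell, and 3 did not pass. URGs were thus 12.5% and DRGs 12.5%, beside 20.2% and 8.18% of all tested genes. Genes that rose were 25% and those that fell 37.5%, beside 32.9% and 31.4% of all. *SMAD3* (chr15:67063763-67195173), a signal carrier of TGF-β and activin, had 386, 438, and 401 CPM with DMSO and 201, 213, and 171 CPM with mocetinostat (log2 fold change -1.07 ± 0.08, edgeR adjusted p = 1.08e-18). All treated samples were far below the controls, but the fold was near the limit. The call as a DRG was lost without mocetinostat replicate 3 (-0.998), with at least 10 counts in every sample (-0.99), after thinning (-0.98), and under scaling to GAPDH (-0.54). *SMAD6* (chr15:66702236-66782849), which lies 280.9 kb from *SMAD3* on the same strand, had 11.04, 9.58, and 10.02 CPM and 26.8, 18.0, and 31.5 CPM (log2 fold change 1.33 ± 0.21, edgeR adjusted p = 6.39e-08). These neighbors moved in opposite directions, whereas the neighbors *BMP8A* and *BMP8B* both rose.

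*SMAD2*, the partner of *SMAD3* in TGF-β signaling, had 143, 132, and 134 CPM with DMSO and 130.1, 134, and 152 CPM with mocetinostat, and its groups overlapped (log2 fold change 0.02 ± 0.10, edgeR adjusted p = 0.874). *SMAD4*, the common partner of both branches, had 58.98, 56.0, and 47.6 CPM and 42.6, 41.5, and 29.4 CPM (log2 fold change -0.51 ± 0.14, edgeR adjusted p = 0.00127). *SMAD7* rose by 0.74 on the log2 scale and *SMAD1*, a BMP signal carrier, fell by 0.83, although *SMAD1* did not pass under scaling to GAPDH (-0.29). For *SMAD5* and *SMAD9*, the other BMP SMADs, the log2 fold changes were -0.19 and 0.28 (edgeR adjusted p = 0.142 and 0.612).

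Secreted antagonists changed in both directions. *GREM1*, which encodes the BMP antagonist gremlin 1, fell, and *FST*, *CHRD*, and *FSTL3* rose. Of the 5 tested antagonists, 2 were URGs (40%), 1 was a DRG (20%), 3 rose (60%), and 1 fell (20%), with a median log2 fold change of 0.83. Over all tested genes these shares were 20.2%, 8.18%, 32.9%, and 31.4%. *GREM1* (chr15:32718004-32745106) was the antagonist with the highest level per length and had 1301, 1278, and 1320.2 CPM with DMSO and 603, 614, and 628 CPM with mocetinostat (log2 fold change -1.08 ± 0.07, edgeR adjusted p = 8.99e-24). Its call as a DRG was lost under scaling to GAPDH, where it was still lower (-0.55). *FST*, the activin trap follistatin, had 2.71, 3.75, and 3.24 CPM and 10.7, 9.30, and 12.4 CPM (log2 fold change 1.78 ± 0.34, edgeR adjusted p = 3.95e-06). *CHRD*, the BMP trap chordin, had 6, 7, and 10 counts and 31, 16, and 12 counts, or 0.543, 1.46, and 1.47 CPM and 6.15, 9.92, and 4.97 CPM (log2 fold change 2.63 ± 0.49, edgeR adjusted p = 2.86e-06). Both genes had few reads. Their groups did not overlap, but *CHRD* was tested only through its treated samples, so that the filter largely set its direction. *FSTL3*, a further activin antagonist, rose by 0.83 on the log2 scale. *NOG*, the BMP antagonist noggin, did not pass (log2 fold change 0.11, edgeR adjusted p = 0.867).

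Negative regulators in the membrane and the cell rose in 4 of 5 tested genes (80%, beside 32.9% of all tested genes). None of the 5 fell (31.4% of all did), and the median log2 fold change was 0.32. These shares rest on only 5 genes. *BAMBI*, a pseudoreceptor without a kinase domain that is itself induced by the pathway, had 9.50, 6.46, and 8.84 CPM with DMSO and 23.2, 22.9, and 27.4 CPM with mocetinostat (log2 fold change 1.53 ± 0.22, edgeR adjusted p = 6.14e-09). *SKI*, a corepressor of SMADs, had the highest level per length of this group, with 150.4, 188, and 199 CPM and 209, 222, and 187 CPM. Its groups overlapped and the test was barely passed (log2 fold change 0.20 ± 0.09, edgeR adjusted p = 0.0497), and the call was lost with DESeq2 and without any 1 of DMSO replicates 1 and 2 and mocetinostat replicates 1 and 2. *SKIL* rose by 0.44 and *SMURF2*, a ubiquitin ligase for SMADs and receptors, by 0.32 on the log2 scale, of which *SMURF2* was lost with DESeq2 and without DMSO replicate 2 or mocetinostat replicate 1. *SMURF1* did not pass (log2 fold change -0.13, edgeR adjusted p = 0.351).

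The 4 *ID* genes, direct BMP targets whose products block basic helix-loop-helix transcription factors, did not move together. *ID1*, *ID2*, and *ID4* were URGs (75%, beside 20.2% of all tested genes), and *ID3* fell. *ID2* and *ID4* were tested only through their treated samples, so that the filter largely set their direction. *ID1* and *ID3* were above the filter's level in all 6 samples and moved in opposite directions. *ID4* (chr6:19837370-19842197, plus strand) had 0, 3, and 4 counts in the controls and 101, 38, and 48 in the treated samples, or 0, 0.625, and 0.590 CPM and 20.02, 23.5, and 19.9 CPM (log2 fold change 5.95 ± 0.44, edgeR adjusted p = 8.92e-20). Its pooled ratio was 66.7 (95% interval 31.7 to 168), and the log2 fold change was 5.02 without DMSO replicate 1 and 6.55 without DMSO replicate 3. *ID2* had 6, 2, and 2 counts and 32, 10, and 16 counts, or 0.543, 0.416, and 0.295 CPM and 6.34, 6.20, and 6.63 CPM (log2 fold change 3.80 ± 0.55, edgeR adjusted p = 7.34e-09), and a pooled ratio of 14.5 (95% interval 7.34 to 31.8). Like *BMP2*, *BMP6*, *BMP8A*, and *BMP8B*, *ID4* had almost no reads in the controls. *ID1* had 19.1, 14.99, and 18.0 CPM with DMSO and 62.8, 69.4, and 60.9 CPM with mocetinostat (log2 fold change 1.86 ± 0.15, edgeR adjusted p = 3.11e-18). *ID3* had 36.4, 34.4, and 36.3 CPM and 24.6, 17.4, and 19.1 CPM (log2 fold change -0.75 ± 0.17, edgeR adjusted p = 8.07e-05), so that all treated samples were below the controls, and it remained lower but did not pass under scaling to GAPDH (-0.21). Per kilobase of merged exons, *ID3* was the highest of the 4 with DMSO (23.8 CPM, against 14.1 CPM for *ID1*), and *ID1* was the highest with mocetinostat (52.2 CPM, against 13.6 CPM for *ID3*).

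Levels can be compared between genes only per length. The highest levels with DMSO were those of *TGFB1* (127 ± 21.9 CPM per kilobase), *GREM1* (87.9 ± 1.41), *INHBA* (75.0 ± 6.07), and *TGFB2* (71.4 ± 2.51), all in CPM per kilobase of merged exons. With mocetinostat, *INHBA* was first (157 ± 6.10 CPM per kilobase), followed by *TGFB1* (96.9 ± 1.91), *ID1* (52.2 ± 3.61), and *TGFB2* (49.4 ± 2.14). *INHBA*, *TGFB1*, and *TGFB2* were thus above every BMP ligand in both conditions. The highest member of each role group was the same in both conditions except for the *ID* genes, and it was the same in all 14 cases when the length of the canonical transcript was used instead. Within the order given here, canonical length put *INHBA* (103) before *GREM1* (89.2) with DMSO.

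**Figure D3:**
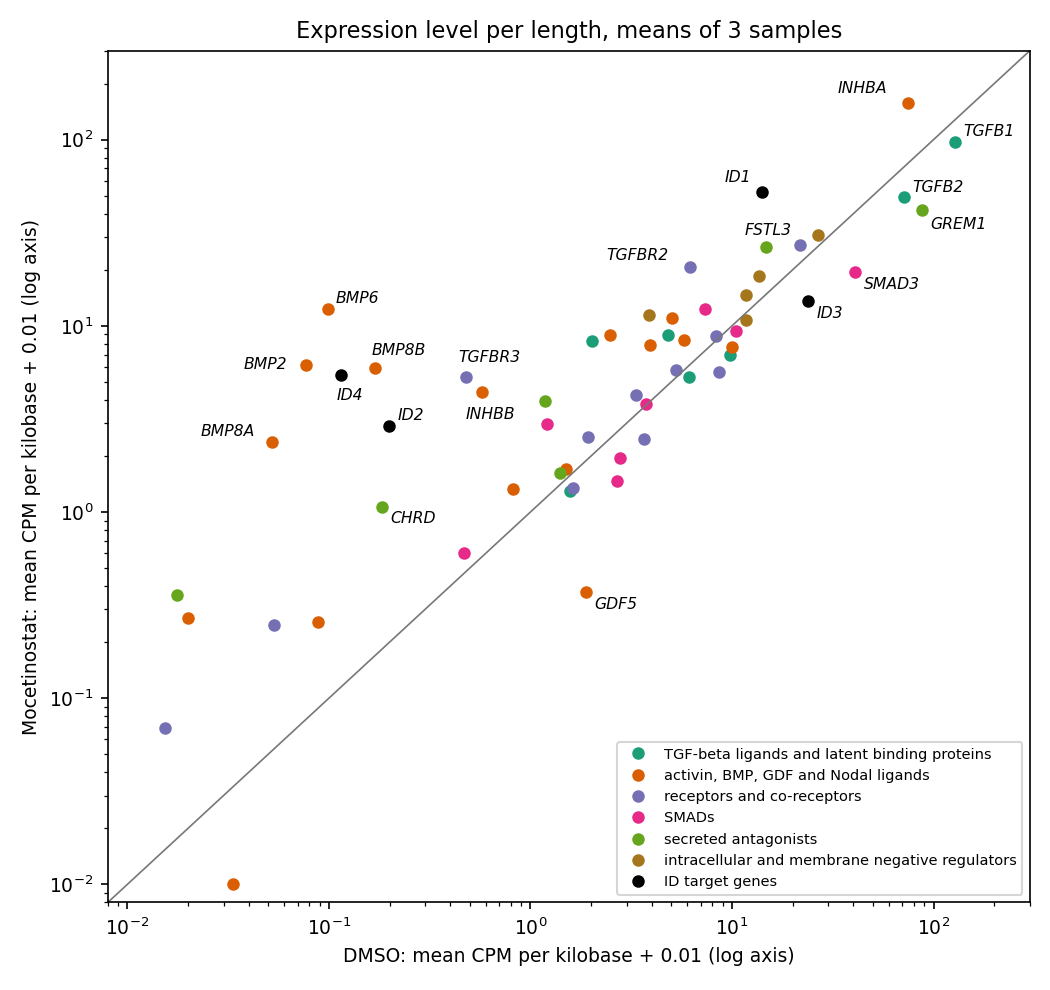
Mean level of each of the 59 genes with mocetinostat (vertical axis) against DMSO (horizontal axis), in CPM per kilobase of merged exons plus 0.01, both on log axes, with color for role and a gray line where both are equal. *BMP6* lies far above the line at 0.0886 and 12.3 CPM per kilobase, whereas *TGFB1* (127 and 96.9), *GREM1* (87.9 and 41.6), and *SMAD3* (40.8 and 19.4) lie below it.

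The order of the BMP ligands per kilobase of merged exons changed with treatment. With DMSO, *BMP7* (3.92 CPM per kilobase) was followed by *BMP4* (2.46) and *BMP5* (1.49), with no overlap between these 3, and then by *BMP8B* (0.160), *BMP6* (0.0886), *BMP2* (0.0671), and *BMP8A* (0.0421), whose neighbors all overlapped. With mocetinostat, *BMP6* came first (12.3 CPM per kilobase), above *BMP4* (8.93) and *BMP7* (7.92), which overlapped each other, then *BMP2* (6.16) and *BMP8B* (5.94), which also overlapped, then *BMP8A* (2.35) and *BMP5* (1.69). Per kilobase of the canonical transcript the first places with mocetinostat changed, and *BMP4* (14.3) came before *BMP6* (12.3) and *BMP7* (10.7), each overlapping its neighbor, so that the order of *BMP4* and *BMP6* depends on the length used.

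Levels per length were also summed by class, as a description, since the groupings were made after the values were seen. The 7 genes from *BMP2* to *BMP8B* summed to 7.70, 8.17, and 8.81 CPM per kilobase with DMSO and to 42.5, 48.9, and 44.4 with mocetinostat, a ratio of means of 5.50. *TGFB1* to *TGFB3* summed to 175, 209.7, and 215 CPM per kilobase with DMSO and to 150.4, 146, and 146 with mocetinostat, a ratio of 0.738 that was 1.06 under scaling to GAPDH. The antagonists, led by *GREM1*, went from 105 ± 2.71 to 74.9 ± 5.90 CPM per kilobase, a ratio of 0.711 that was 1.02 under scaling to GAPDH. *SMAD6* and *SMAD7* together went from 8.56 ± 0.949 to 15.2 ± 1.17 (ratio 1.78). The 6 signal-carrying SMAD genes, led by *SMAD3* (40.8 to 19.4), went from 60.96 ± 2.42 to 36.6 ± 2.87 (ratio 0.6002). Both sums kept their direction under every scaling tried. Of the signal-carrying genes, *SMAD1* and *SMAD4* also fell, whereas *SMAD2*, *SMAD5*, and *SMAD9* did not pass the test. The *ID* genes went from 38.2 ± 2.41 to 74.2 ± 3.43 CPM per kilobase (ratio 1.94).

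**Figure D4:**
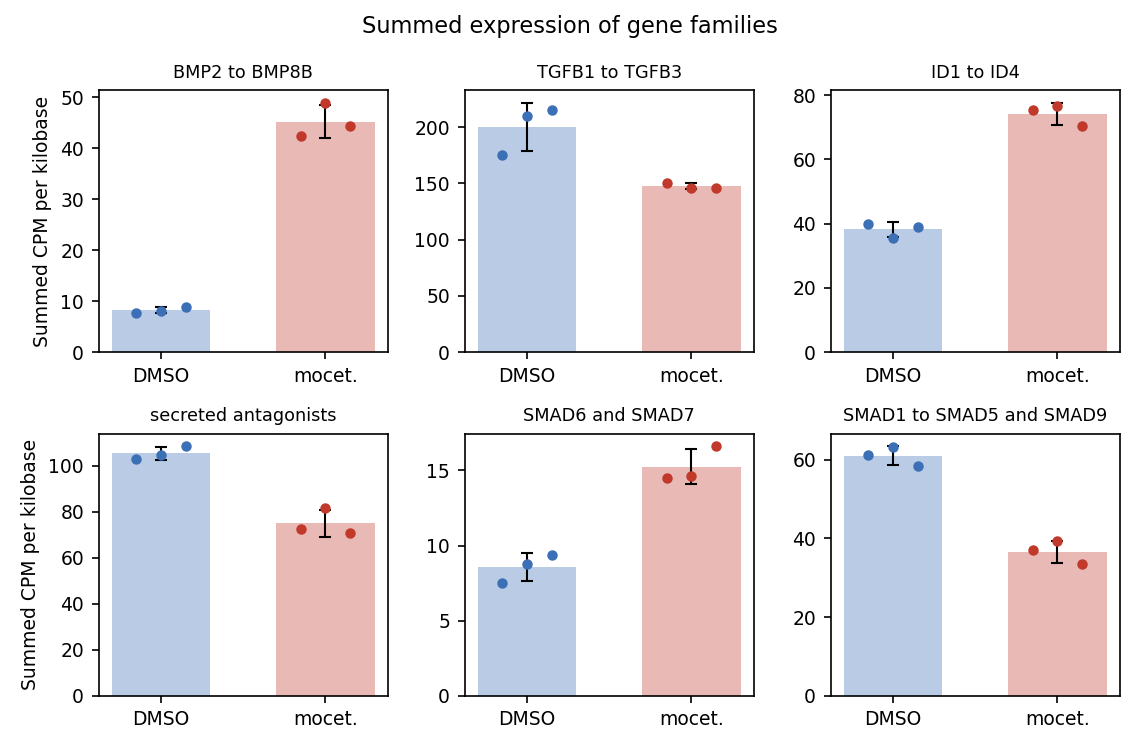
Summed CPM per kilobase of 6 groups of signaling genes (vertical axes from 0) with DMSO and mocetinostat, with bars for the mean, error bars for the SD, and points for the 3 samples. The BMP ligands go from 8.23 to 45.3 CPM per kilobase and the *ID* genes from 38.2 to 74.2. The 6 signal-carrying SMADs go from 60.96 to 36.6, mostly through *SMAD3* (40.8 to 19.4). The lower sums of *TGFB1* to *TGFB3* and of the antagonists turn upward under scaling to GAPDH.

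In all, 6 genes of the family could not be tested for lack of reads, and their counts are all that can be given. *NODAL* had 1 read in the whole series, and *GDF10* had 0, 3, and 0 reads with DMSO and 10, 0, and 0 with mocetinostat. The BMP receptor *BMPR1B* had 0, 2, and 3 and 8, 3, and 3 reads, and *ACVRL1*, the endothelial receptor ALK1, had 1, 0, and 0 and 5, 0, and 0. *BMP3*, a BMP that opposes the others, had 2, 0, and 0 and 6, 1, and 7, and the BMP trap *CHRDL1* had 1, 0, and 0 and 8, 0, and 6. Both of the latter were called URGs without the filter and with DESeq2, on these few reads.

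A wider list of 105 other genes of the pathways gives the surroundings of these changes. Of the 75 tested, 19 were URGs, 6 were DRGs, 37 rose, and 18 fell, with a median log2 fold change of 0.29. URGs were thus 25.3% and DRGs 8% of the tested genes, near the 20.2% and 8.18% of all tested genes. Genes that rose were 49.3% and those that fell 24%, beside 32.9% and 31.4% of all. Scaling to GAPDH gave 35 URGs and 0 DRGs, beside 31.7% and 2.03% of all tested genes. Among other ligands and activators, 9 of 24 could be tested. Of these, 5 rose (55.6%, beside 32.9% of all tested genes) and 1 fell (11.1%, beside 31.4%). *GDF15*, a distant family member induced by cell stress, was the only URG (log2 fold change 4.06 ± 0.15, edgeR adjusted p = 4.83e-36). Among other receptors and co-receptors, none of the 7 tested genes fell, and 3 were URGs (42.9%, beside 20.2% of all tested genes). These were *RGMA* (log2 fold change 5.36 ± 0.47, edgeR adjusted p = 1.17e-16) and *NEO1* (log2 fold change 2.31 ± 0.13, edgeR adjusted p = 1.4e-25), a BMP co-receptor and its partner neogenin, and the type I receptor *ACVR1C* (log2 fold change 3.10 ± 0.64, edgeR adjusted p = 1.85e-05). *RGMA* had 5, 1, and 2 reads in the controls and *ACVR1C* had 3, 1, and 5. Both were tested only through their treated samples, so that the filter largely set their direction. Other antagonists included 3 that rose and 3 that fell among 7 tested, with *CHRDL2* as the only URG (log2 fold change 2.98 ± 0.56, edgeR adjusted p = 3.49e-06). *CHRDL2*, also tested only through its treated samples, had 10, 2, and 2 reads in the controls and 20, 8, and 15 in the treated ones. Its log2 fold change was 3.70 without DMSO replicate 1.

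Other intracellular regulators were lowered in 8 (36.4%) and raised in 6 (27.3%) of 22 tested genes, close to the 31.4% and 32.9% of all tested genes. The transcriptional coactivators *CREBBP* (log2 fold change -1.40 ± 0.09, edgeR adjusted p = 9.96e-24) and *EP300* (log2 fold change -1.003 ± 0.10, edgeR adjusted p = 5.49e-15), acetyltransferases that SMADs recruit, and the corepressor *TGIF2* (log2 fold change -1.27 ± 0.15, edgeR adjusted p = 2.81e-11) were DRGs. *EP300* sat at the 2-fold limit and lost this call without DMSO replicate 2 or either of mocetinostat replicates 1 and 3 (-0.98, -0.97, and -0.96). *NEDD4L*, a ubiquitin ligase for activated SMADs (log2 fold change 1.598 ± 0.10, edgeR adjusted p = 9.02e-25), and *LDLRAD4*, a membrane protein that keeps SMADs from the receptor (log2 fold change 5.18 ± 0.70, edgeR adjusted p = 1.08e-09), were URGs. *LDLRAD4* had only 1, 2, and 0 counts in the controls and was tested only through its treated samples. Its log2 fold change was 6.15 without DMSO replicate 2.

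Of 22 tested genes that TGF-β is known to induce, 14 rose, 5 fell, 8 were URGs, and 2 were DRGs, and the list's median was 0.64 on the log2 scale. These shares were 63.6%, 22.7%, 36.4%, and 9.09%, beside 32.9%, 31.4%, 20.2%, and 8.18% of all tested genes. The cell cycle inhibitors *CDKN1A* (log2 fold change 2.86 ± 0.09, edgeR adjusted p = 4.06e-40) and *CDKN2B* (log2 fold change 2.04 ± 0.10, edgeR adjusted p = 1.42e-28), the protease inhibitor *TIMP3* (log2 fold change 1.69 ± 0.09, edgeR adjusted p = 1.47e-27), and the transcription factor *SNAI1* (log2 fold change 1.83 ± 0.11, edgeR adjusted p = 2.72e-24) had the smallest p among the URGs. *CCN2*, a matrix-associated TGF-β target, had a log2 fold change of 1.11 ± 0.07, *JUNB* one of 0.49 ± 0.12, and *TGFBI* one of 0.25 ± 0.07. All 3 passed the test. The DRGs were the fibrillar collagen gene *COL3A1* (log2 fold change -1.35 ± 0.08, edgeR adjusted p = 1.1e-24) and the smooth muscle gene *TAGLN* (log2 fold change -1.01 ± 0.09, edgeR adjusted p = 2.76e-16), which was just within 2-fold without mocetinostat replicate 2 (-0.995). Exons of *PCSK7* on the opposite strand cover 34.1% of the *TAGLN* exons, and those of an unnamed gene on the same strand cover 38.1%. Many genes of this list have other inducers as well, so the list is no readout of TGF-β alone.

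Of 8 tested BMP response genes, 6 rose, 4 of these as URGs, and 1 fell, and the list's median log2 fold change was 1.37. With 8 genes, the shares that rose (75%) and that were URGs (50%) rest on few genes beside the 32.9% and 20.2% of all tested genes. The URGs were the homeobox genes *MSX2* (log2 fold change 2.43 ± 0.17, edgeR adjusted p = 7.54e-21), *DLX3* (log2 fold change 4.005 ± 0.37, edgeR adjusted p = 1.12e-15), and *DLX5*, and the Notch and BMP target *HEY1* (log2 fold change 1.75 ± 0.25, edgeR adjusted p = 8.62e-09). *DLX5* had no read with DMSO and 13, 5, and 5 reads with mocetinostat, so it was tested only through its treated samples. The difference is at least 19.1-fold when 3 counts over the DMSO group are taken as the limit that a count of 0 allows. *RUNX2*, a transcription factor of chondrocyte hypertrophy and bone, was the only DRG (log2 fold change -1.31 ± 0.15, edgeR adjusted p = 2.95e-12), and *MSX1* did not pass (log2 fold change -0.07, edgeR adjusted p = 0.766). With *DLX5* at its bound, the list's median was also 1.37.

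**Figure D5:**
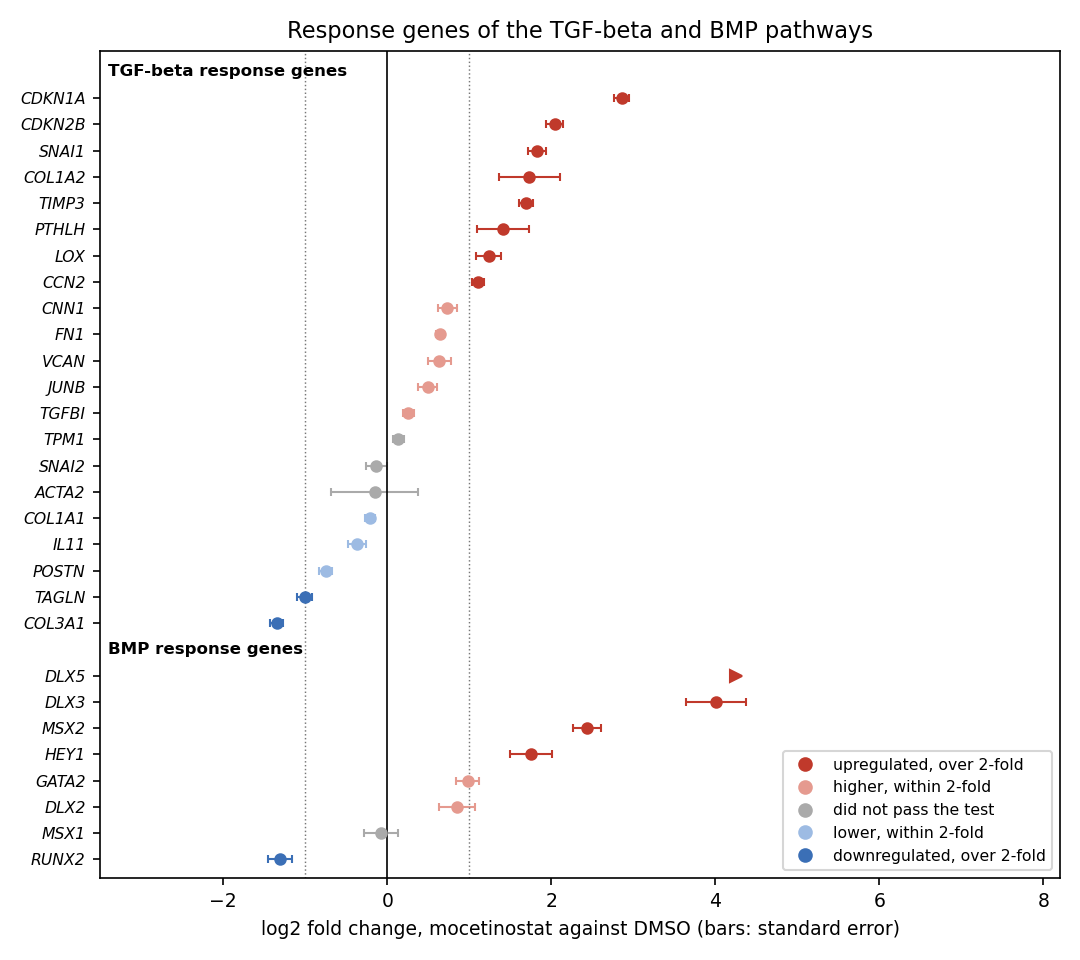
Log2 fold change (horizontal axis, mocetinostat against DMSO) of the tested TGF-β and BMP response genes (1 TGF-β response gene is left out), with bars for the standard error, dotted lines at -1 and 1, and a triangle for *DLX5* at its lower bound of 4.26. In the BMP list, *DLX3* is at 4.005 below the *DLX5* bound, and the TGF-β list reaches 2.86 in *CDKN1A*, whereas *RUNX2* (-1.31) and *COL3A1* (-1.35) are lowest.

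Markers of other cell types moved in the same samples and are given beside these results. The 6 endothelial markers summed to 7.599 to 10.6 CPM with DMSO and 42.8 to 50.8 CPM with mocetinostat, and *KDR* carried most of the difference, with 1, 3, and 2 counts against 139, 37, and 55. The 4 neuron markers summed to 8.25 to 14.2 CPM with DMSO and 30.3 to 50.8 CPM with mocetinostat. The 5 macrophage and leukocyte markers summed to 5.75 to 10.4 CPM and 9.71 to 15.5 CPM, respectively. The 5 osteoblast markers summed to 0.208 to 0.633 CPM and 2.38 to 6.82 CPM, and 0 of 5 had enough reads to be tested. Of the 34 markers in the 6 lists, none was at 0 in all 6 samples. Their part in the changes of the signaling genes was not tested.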

How the data were processed

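Total RNA of 6 TC28a2 cultures was sequenced as single reads of 100 bases. The deposited file is a table of raw counts of reads per gene, without normalization. To obtain the counts, the authors trimmed the reads, took out those of ribosomal RNA, used STAR to map the rest to GRCh38, and counted reads on Ensembl 98 genes with featureCounts (STAR 2.6.1d and featureCounts 1.6.4, per the submitters' processing notes). Whether counting used strand, or how multi-mapping reads were treated, is not given in the sources used here. Columns were matched to samples by name, and 0 columns were left over.

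Genes passing filterByExpr (minimum count 10, here 2.01 CPM) were tested in R 4.3.3 with edgeR 4.0.16 (limma 3.58.1) by quasi-likelihood F tests of mocetinostat against DMSO, with TMM factors and treatment as the only term. CPM values use the TMM library sizes. Alternatives were RLE, library size, and GAPDH scaling, no filter, at least 10 counts in every sample, DESeq2 1.42.0, glmTreat against a log2 fold change of 1, a replicate block, thinning every library to 1619344 counts, and leaving out each sample. The code was tested on simulated data. Replicates of a group differed by more than sampling noise (chi-square per degree of freedom 1.93 to 7.95 over genes).

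Coordinates, exon lengths, and overlaps are from GENCODE 44 on GRCh38, which held 99.5% of the gene IDs. Promoters are from RefSeq. Summaries, intervals, and plots were made in Python 3.11.15 (pandas 2.3.3, scipy 1.17.1, matplotlib 3.10.9).

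The 59 genes, the pathway lists, the marker lists, and the tests were chosen with earlier results of these data known. Full statistics are given for every URG and DRG, the most abundant gene per length of each role group, the core receptors and SMADs (*TGFBR1*, *TGFBR2*, *BMPR1A*, *BMPR2*, *SMAD2*, *SMAD3*, and *SMAD4*), and *TGFB1*, *BMP2*, *BMP4*, and *GDF5*. From each pathway list, up to 4 called genes with the smallest p in each direction are named, with *CCN2*, *TGFBI*, *JUNB*, and *MSX1* in any case, and 1 further gene of the rule is not reported here. *SOX9*, *COL2A1*, *COL9A1*, *COL1A1*, *COL1A2*, *THY1*, *PDGFRA*, *DPT*, and *KDR* were named after their values were seen.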

Additional observations from a re-analysis of the deposited data

How the results depend on the processing

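All 22 calls were kept under RLE, library size, and the replicate block, and 21 with DESeq2 (without *BMP7*). The number of URGs was 12 with at least 10 counts in every sample, which leaves 41 of the 53 genes to be tested. Of all genes tested in that setting, 14.9% were URGs. The number of DRGs was 1 under GAPDH scaling, with glmTreat, with at least 10 counts in every sample, and after thinning, and 5 without the filter. Over all genes tested in these settings, DRGs were 2.03%, 3.33%, 6.47%, 7.57%, and 5.23%, respectively. Genes that rose numbered 15 with glmTreat, which asks for more than a 2-fold change, beside 14.8% of all tested genes. Genes that fell numbered 3 under GAPDH scaling and 1 with glmTreat, beside 9.82% and 3.33% of all tested genes. *INHBA*, *GDF11*, *BMP7*, *SMAD6*, *GREM1*, and *SMAD3* were the 6 calls lost with glmTreat. In the pathway lists, GAPDH scaling gave 35 URGs and 0 DRGs, beside 31.7% and 2.03% of all tested genes. There, glmTreat gave 3 DRGs, beside 3.33% of all tested genes. Leaving out 1 sample gave 17 to 19 URGs, 2 to 3 DRGs, 25 to 27 genes that rose, and 10 to 13 that fell. Over all genes tested in those fits, the shares were 19.9% to 21.7%, 7.97% to 8.87%, 29.6% to 32.5%, and 27.9% to 29.9%. GAPDH scaling, which adds 0.54 to the median, turned *TGFB1* (0.14), *TGFB2* (0.00013), *TGFB3* (0.34), *LTBP2* (0.0541), *LTBP3* (0.36), *BMP1* (0.13), *ACVR2B* (0.23), *SMAD4* (0.0334), *SMAD5* (0.35), and *SMURF1* (0.40) upward. Without the filter, *BMPR2* (-0.15), *ACVR1B* (-0.10), *SMAD2* (-0.23), *NOG* (-0.14), and *SKI* (-0.0469) turned downward, as did *SMAD2* with DESeq2 (-0.0159), and *LTBP3* turned upward after thinning (0.0076); the cause was not tested. Leaving out 1 sample gave -0.0070 to 0.38 for *BMP5*, -0.0605 to 0.0628 for *SMAD2*, and -0.40 to 0.47 for *NOG*, none of which passed the test. Replicate numbers are shared by the groups, but deviations of same-numbered samples correlated at only 0.0078, 0.0116, and -0.0162, and not every sample correlated best with its own number, so the samples were not treated as paired. The replicate block gave 19 URGs, 3 DRGs, 28 genes that rose, and 12 that fell among the 53, and 19 URGs and 5 DRGs in the pathway lists. With 1619344 counts in the smallest library, genes near 2.01 CPM rest on few reads, and folds of genes with almost no control reads are imprecise. Using the length of the canonical transcript, an alternative chosen after seeing the data, moved *BMP6* from place 1 to place 2 among the BMP ligands with mocetinostat.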
